A study of Mus musculus with 18 samples.

Results

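The genes described here are 8 epithelial keratins, Krt8, Krt18, Krt7, Krt19, Krt20, Krt23, Krt80 and Krt5, taken by name from a table of 32285 genes that holds 53 keratin genes in all. They were measured by RNA sequencing in tissue cut from frozen kidney sections of male C57BL/6 iKspCre-Pkd1del mice, genotype Pkd1 KO, with a kidney-specific tamoxifen-inducible Cre and LoxP sites around exons 2 to 11 of Pkd1, the gene mutated in most people with autosomal dominant polycystic kidney disease. All mice had received tamoxifen at 12.5 mg/kg by gavage on postnatal days 18 and 19 and were killed at a mild cystic stage judged by magnetic resonance imaging, so every region, the non-cystic ones included, comes from a Pkd1-deleted kidney and there is no wild type. The regions were of 3 kinds: cyst surroundings with high F4/80 signal (F4/80-high), cyst surroundings with low F4/80 signal (F4/80-low) and non-cystic areas. F4/80, encoded by Adgre1, is a surface protein of macrophages. Each of 3 kidneys gave 2 libraries of each kind, 18 libraries in all and 6 of each kind. Kidneys 1 and 3 have a labelled age of 269 and kidney 2 of 297, with no unit, and the labels do not say whether the kidneys came from separate mice or whether the 2 libraries of a kidney and region are separate pieces of tissue. The p-values below therefore rest on how the differences between regions vary over these 3 kidneys, as the kidney is a block in the fit.

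Keratins are the intermediate filament proteins of epithelial cells. A filament always pairs a type I keratin with a type II keratin, and in simple, single-layered epithelia the first pair made is the type II protein of Krt8 with the type I protein of Krt18. In the kidney these are known from collecting ducts, thin limbs and the lining of the glomerular capsule, while healthy proximal tubules hold little of them and injured tubules make more. Krt7 (type II) and Krt19 (type I) belong to ducts, and Krt19 also to mesothelium. Krt20 (type I) is known from gut lining and from the surface cells of the urothelium. Krt5 (type II) marks basal cells of layered epithelia and of the urothelium, and Krt23 (type I) and Krt80 (type II) are less studied keratins.

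Total counts per library were 5841975 to 8662288 in F4/80-high, 7186518 to 9188813 in F4/80-low and 5366651 to 9002054 in non-cystic regions. Adgre1 had 34.9 to 76.1 CPM (counts scaled to a common library total) in F4/80-high, 3.13 to 14.6 CPM in F4/80-low and 1.50 to 4.04 CPM in non-cystic libraries; the regions had been chosen by F4/80, so this is a check and not a result. Cdh16, the kidney epithelial cadherin whose promoter drives the Cre, averaged 209.5, 331.7 and 356.2 CPM in F4/80-high, F4/80-low and non-cystic regions, so kidney epithelium was present in all 3. Pkd1 averaged 9.50 ± 2.88 CPM in F4/80-high, 7.16 ± 2.01 CPM in F4/80-low regions and 6.31 ± 1.32 CPM in the non-cystic areas (SD over 3 kidneys). Counts per gene do not check the deletion of some exons, there is no undeleted tissue, and Pkd1 overlaps Tsc2 on the other strand. Mitochondrial transcripts took 1.49% to 4.06% of the counts in F4/80-high, 7.71% to 11.1% in F4/80-low and 10.6% to 15.4% in non-cystic libraries. In bulk tissue like this, fewer cells of a type and less RNA per cell cannot be told apart.

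The 8 genes lie in the mouse keratin clusters, with GRCm38 positions from the GENCODE annotation. The type II genes are on chromosome 15: Krt80 at 101347444 to 101370162 on the minus strand, Krt7 at 101411043 to 101430313 on the plus strand, Krt5 at 101707070 to 101712898 on the minus strand and Krt8 at 101996698 to 102004482 on the minus strand. Krt18, a type I gene, sits beside Krt8 at 102028180 to 102032027 on the plus strand, and the other type I genes are on chromosome 11, all on the minus strand: Krt20 at 99428403 to 99438150, Krt23 at 99477974 to 99493137 and Krt19 at 100140810 to 100148665. The library kit keeps no strand information, which makes the count of any gene uncertain where another gene overlaps it in antisense. This touches Krt8, which had 24499 counts against 842 for Gm36026, Krt7 with 12588 against 144 for Gm671, and Krt80 with 367 against 215 for Gm35853. Krt5 is overlapped by Gm44323, which has no row in the count table.

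Promoter windows from 250 bases before to 50 bases after the start site were available from RefSeq for 6 of the 8 genes. The windows of the 3 genes that differed between regions in the tests below are shown here, 5′ to 3′ on the gene's own strand, from GRCm38.p6. They are chr15:102004293-102004592 on the minus strand for Krt8, chr15:102027966-102028265 on the plus strand for Krt18 and chr11:99438104-99438403 on the minus strand for Krt20. Capitals mark TATAAA or its reverse complement.
Krt8: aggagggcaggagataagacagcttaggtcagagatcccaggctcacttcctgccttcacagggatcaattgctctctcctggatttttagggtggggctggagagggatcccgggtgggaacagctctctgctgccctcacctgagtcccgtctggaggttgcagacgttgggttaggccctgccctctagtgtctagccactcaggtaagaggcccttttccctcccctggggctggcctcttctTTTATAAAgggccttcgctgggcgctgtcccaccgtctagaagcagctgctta
Krt18: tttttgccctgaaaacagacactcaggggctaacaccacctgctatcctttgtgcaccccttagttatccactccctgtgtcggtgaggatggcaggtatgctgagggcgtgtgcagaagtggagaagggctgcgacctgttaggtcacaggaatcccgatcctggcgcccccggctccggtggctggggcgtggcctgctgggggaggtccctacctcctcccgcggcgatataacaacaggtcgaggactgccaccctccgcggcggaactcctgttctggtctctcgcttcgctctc
Krt20: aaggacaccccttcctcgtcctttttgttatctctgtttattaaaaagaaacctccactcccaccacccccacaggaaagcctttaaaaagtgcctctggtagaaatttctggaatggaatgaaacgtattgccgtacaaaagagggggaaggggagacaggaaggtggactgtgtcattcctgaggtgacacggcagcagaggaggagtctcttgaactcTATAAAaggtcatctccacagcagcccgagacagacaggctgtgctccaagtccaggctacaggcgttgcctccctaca
TATAAA, the letters of the TATA box that positions transcription starts, occurred once in the Krt20 window, 29 bases before the start, and as 2 overlapping matches on opposite strands at the annotated start of Krt8. It was not found on either strand of the windows of Krt18, Krt7, Krt23 or Krt5, and 13.6% of 32851 promoter windows of this length hold it. The AP-1 letters TGANTCA were in none of the 6 windows and in 7.81% of all windows. The GC box letters GGGCGG occurred 4 times for Krt7 and in no other of the 6, against 35.7% of all windows, and the SOX core ACAAT was found once, for Krt23, against 31.0% of all windows. A match or its lack describes these letters in these windows and says nothing of which factors bind.

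Of the 8 genes, 7 had enough counts to be tested. Krt5 had 3 counts in all, in 1 F4/80-high library (kidney 3, replicate 2), and was at 0 in the other 17. In F4/80-high against non-cystic regions Krt20, Krt8 and Krt18 were called higher and none lower. That is 3 of 7, in a comparison where 39.2% of the 16034 genes tested were called, and 19.7% as higher. In F4/80-high against F4/80-low regions Krt8 and Krt20 were called higher and none lower, 2 of 7 where 24.3% of genes were called and 10.3% as higher. In F4/80-low against non-cystic regions Krt20 alone of the 7 was called, higher, where 1.53% of genes were called and 1.51% as higher; Krt20 and Krt8 had an unadjusted p below 0.05 there. None of the 7 was lower at an unadjusted p below 0.05 in any comparison. A gene is called when its Benjamini-Hochberg adjusted p in edgeR's quasi-likelihood test, fitted on all genes with the kidney as block, is below 0.05. The comparisons share region groups, so their fold changes are not independent. The median log2 fold change of the 7 was 1.47 in F4/80-high against non-cystic regions, where the median of all genes tested was 0.04. It was 0.74 in F4/80-high against F4/80-low, against 0.04 over all genes, and 0.73 in F4/80-low against non-cystic, against 0.00. The plot of log2 fold changes shows all 7 genes in the 3 comparisons.

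**Figure D1:**
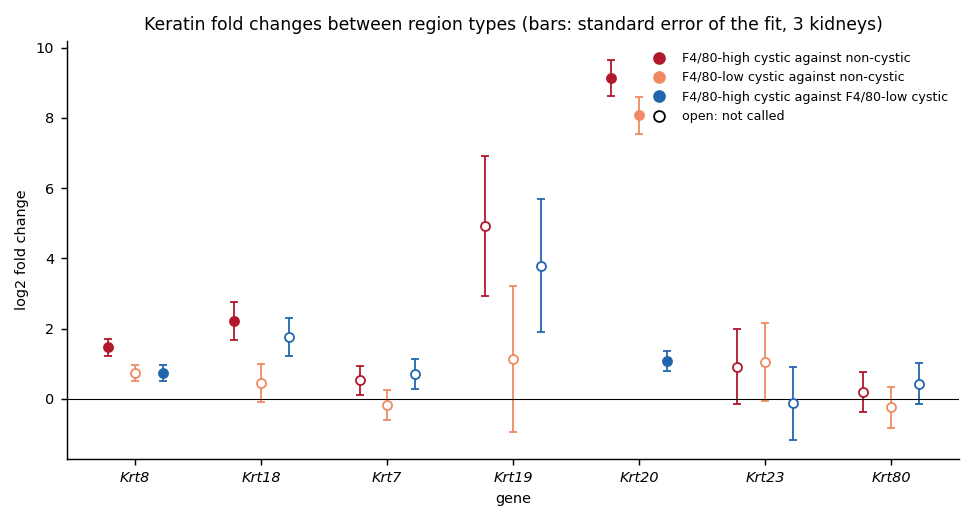
Log2 fold change (y axis) of the 7 tested keratins (x axis) in the 3 comparisons, with bars of 1 SE from the edgeR fit over 3 kidneys. Filled points were called at an adjusted p below 0.05 and open points were not. Krt20 stands at 9.14 and 8.07 in the comparisons with non-cystic regions, while Krt7, Krt23 and Krt80 have bars that reach near or across 0.

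Krt8, the type II partner of the founding pair, ranged from 159.9 to 485.6 CPM with a median of 248.7 in the 6 F4/80-high libraries. It ran from 133.6 to 171.2 CPM with a median of 145.7 in F4/80-low libraries, and from 69.7 to 115.2 CPM with a median of 86.9 in non-cystic libraries. Both cystic groups lay wholly above the non-cystic one, and the 2 cystic groups overlapped, since the lowest F4/80-high library was below the highest F4/80-low one. Krt8 rose in F4/80-high against non-cystic regions by 1.47 ± 0.24 on the log2 scale (SE, n = 3 kidneys, adjusted p = 0.00145), 2.76-fold, with 1.12, 1.14 and 2.15 in kidneys 1, 2 and 3. The kidney values here and below are differences of log2 CPM with a prior count of 2. F4/80-low against non-cystic regions differed by 0.73 ± 0.24 (adjusted p = 0.228), positive in all 3 kidneys at 0.72, 0.39 and 1.13 but not called. In F4/80-low regions Krt8 was even: the 2 libraries of a kidney differed by 1.05 to 1.28 times, and the level over kidneys was 151.0 ± 4.57 CPM (SD, n = 3 kidneys).

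F4/80-high against F4/80-low regions differed by 0.74 ± 0.24 for Krt8 (adjusted p = 0.0479, 1.67-fold). This call sat at the threshold. It was lost when any of 9 single libraries was left out, F4/80-high kidney 1 replicate 2, kidney 2 replicate 2 and kidney 3 replicate 2, F4/80-low kidney 1 replicate 1, kidney 2 replicate 1 and kidney 3 replicate 2, and non-cystic kidney 1 replicate 1, kidney 2 replicate 1 and kidney 3 replicate 2, with values of 0.47 to 0.74 and adjusted p of 0.0531 to 0.133. It was also lost without any of the 3 kidneys, at 0.89, 0.72 and 0.57 without kidneys 1, 2 and 3 (adjusted p = 0.121, 0.210 and 0.0552, edgeR).

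Krt18, the type I partner, had 118.7 to 507.0 CPM with a median of 157.0 in F4/80-high, 12.5 to 85.1 CPM with a median of 70.3 in F4/80-low and 9.03 to 100.9 CPM with a median of 38.9 in non-cystic libraries. Every F4/80-high library was above every library of the other 2 groups, which overlapped each other. Krt18 was the 1 member of the 7 whose F4/80-high and F4/80-low libraries did not overlap, against 16.9% of all genes tested. It rose in F4/80-high against non-cystic regions by 2.22 ± 0.55 (adjusted p = 0.0172), 4.65-fold, with 3.01, 0.99 and 2.69 in kidneys 1, 2 and 3. The call was lost without kidney 1 (1.95, adjusted p = 0.0506) and without kidney 3 (1.88, adjusted p = 0.119). F4/80-high against F4/80-low regions differed by 1.77 ± 0.54 (adjusted p = 0.0543), not called, with 1.18, 1.05 and 3.14 in the kidneys. That value passed the threshold when any of 6 single libraries was left out, at 1.58 to 1.94 with adjusted p of 0.0276 to 0.0478: F4/80-high kidney 1 replicate 1 and kidney 2 replicate 1, F4/80-low kidney 1 replicate 1 and kidney 3 replicate 2, and non-cystic kidney 1 replicate 2 and kidney 2 replicate 2. F4/80-low against non-cystic regions differed by 0.45 ± 0.53 (adjusted p = 0.860), and the kidneys pointed both ways, with 1.83, -0.06 and -0.44.

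**Figure D2:**
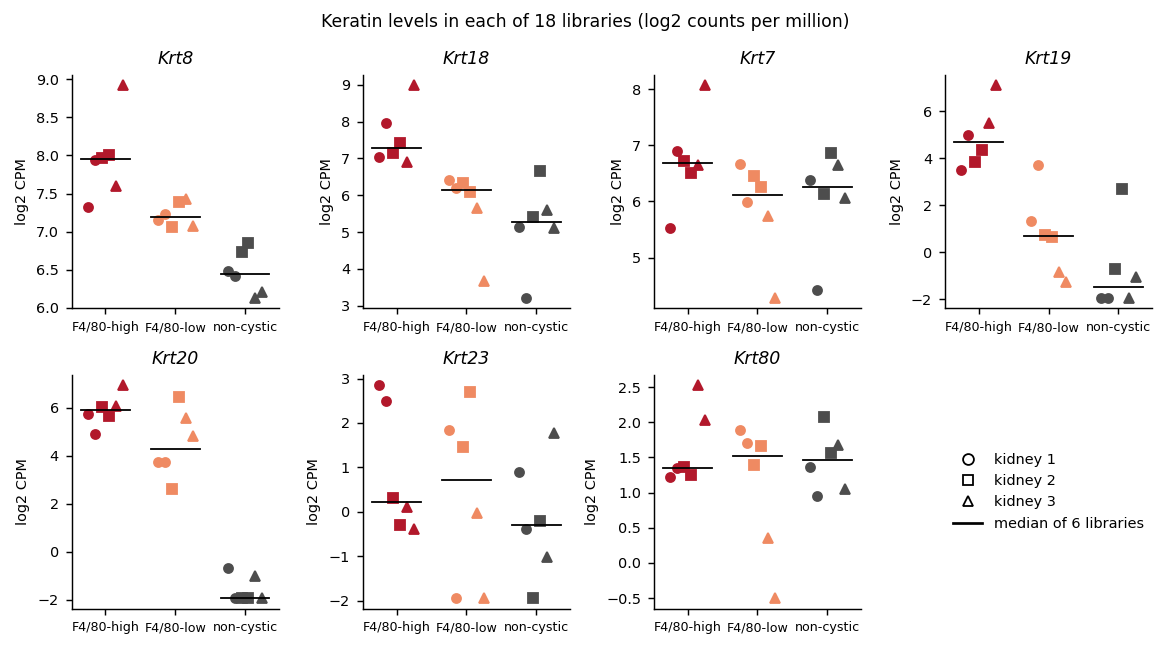
Level of each of the 7 tested keratins (y axis, log2 CPM) in F4/80-high, F4/80-low and non-cystic regions; each point is a library, its symbol gives the kidney, and the line is the median of 6 libraries. Krt20 is near the floor in all non-cystic libraries, and the F4/80-high points of Krt18 lie above all others.

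Krt20 separated cystic from non-cystic regions by a larger fold than any other of the 7. In F4/80-high libraries it had 53.4 and 29.8 CPM in kidney 1, 66.0 and 50.1 CPM in kidney 2 and 67.5 and 122.2 CPM in kidney 3. In F4/80-low libraries it had 13.0 and 13.0 CPM in kidney 1, 5.88 and 87.0 CPM in kidney 2 and 47.5 and 27.7 CPM in kidney 3. Non-cystic libraries held 0.355 CPM in 1 library of kidney 1, 0.235 CPM in 1 of kidney 3 and 0 in the other 4. In counts these are 3545 in F4/80-high, 1355 in F4/80-low and 4 in non-cystic regions. Both cystic groups lay wholly above the non-cystic group, and they overlapped each other. Per total counts the ratio to non-cystic regions was 884 for F4/80-high, with an exact 95% interval of 345 to 3247 for counting error only, and 322 for F4/80-low, with an interval of 126 to 1184.

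In the edgeR fit Krt20 rose by 9.14 ± 0.52 in F4/80-high (adjusted p = 1.59e-05) and by 8.07 ± 0.52 in F4/80-low (adjusted p = 0.000301) against non-cystic regions, in all 3 kidneys. With 4 counts in the non-cystic group, these fitted values depend on the prior count. Leaving out non-cystic kidney 1 replicate 1, which holds 2 of the 4 counts, gave 10.00 and 8.92, and leaving out F4/80-low kidney 2 replicate 2 gave 7.26 for F4/80-low. Without kidney 1 they were 9.75 for F4/80-high and 8.94 for F4/80-low, and without kidney 2 the F4/80-low value was 7.17; all these were called. F4/80-high against F4/80-low regions differed by 1.07 ± 0.29 (adjusted p = 0.0278, 2.10-fold), with 1.63, 0.41 and 1.22 in the kidneys. This call was lost without F4/80-high kidney 3 replicate 2 (0.92, adjusted p = 0.0659), without F4/80-low kidney 2 replicate 1 (0.71, adjusted p = 0.358), without kidney 1 (0.80, adjusted p = 0.148) and without kidney 3 (0.99, adjusted p = 0.132). Without F4/80-low kidney 2 replicate 2, the library at 87.0 CPM, it was 1.97 and called. The 2 F4/80-low libraries of a kidney differed by 1.00 to 14.8 times in Krt20, and those of F4/80-high regions by 1.32 to 1.81 times.

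Krt19, the duct and mesothelium keratin, had 11.2 to 138.5 CPM with a median of 26.1 in F4/80-high, 0.149 to 12.9 CPM with a median of 1.36 in F4/80-low and 0 to 6.12 CPM with a median of 0.114 in non-cystic libraries. All F4/80-high libraries were above all non-cystic ones, and the highest F4/80-low library was above the lowest F4/80-high one. Non-cystic kidney 2 replicate 2 held 50 of the 53 non-cystic counts. The difference between F4/80-high and non-cystic regions was 4.92 ± 2.00 (adjusted p = 0.116), not called, with 7.29, 2.15 and 8.67 in the kidneys. Without non-cystic kidney 2 replicate 2 it was 8.65 (adjusted p = 0.0156), and without F4/80-low kidney 1 replicate 2, a library of neither group that shares the fit, 5.17 (adjusted p = 0.0449). F4/80-high against F4/80-low regions differed by 3.79 ± 1.89 (adjusted p = 0.217), and F4/80-low against non-cystic regions by 1.13 ± 2.07 (adjusted p = 0.921), with kidney values of 5.88, -1.38 and 0.78. Krt19 was called in F4/80-high against non-cystic regions under 9 of 37 alternatives, at 4.90 to 8.65, and against F4/80-low under 4 of 37, among them 3.75 (adjusted p = 0.0202) with 18 libraries and kidney as block, 4.42 (adjusted p = 0.00391) in voom and 3.89 (adjusted p = 0.0255) with libraries numbered 1 only. The fits of 18 libraries, voom among them, count the 2 libraries of a kidney and region separately, though they are not independent. The 9 also include a fit without 2 libraries picked for their Krt19 values.

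Counted over the 7 tested keratins, the F4/80-high libraries did not overlap the non-cystic ones for 4 (Krt8, Krt18, Krt19 and Krt20), against 27.4% of all genes tested. F4/80-low and non-cystic libraries did not overlap for 2, Krt8 and Krt20, against 2.18% of all genes. Krt7, the second duct keratin, showed no such separation. It had 45.7 to 268.3 CPM with a median of 102.6 in F4/80-high, 19.2 to 101.4 CPM with a median of 69.6 in F4/80-low and 21.2 to 116.2 CPM with a median of 76.3 in non-cystic libraries. All 3 groups overlapped, and no comparison was called: the log2 fold change was 0.53 ± 0.42 (adjusted p = 0.355) in F4/80-high and -0.18 ± 0.42 (adjusted p = 0.941) in F4/80-low against non-cystic regions, and 0.71 ± 0.43 (adjusted p = 0.275) for F4/80-high over F4/80-low.

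The remaining tested members were scarce. Krt23 had 0.509 to 6.92 CPM with a median of 0.900 in F4/80-high, 0 to 6.23 CPM with a median of 1.60 in F4/80-low and 0 to 3.18 CPM with a median of 0.557 in non-cystic libraries, from 141, 94 and 33 counts. F4/80-high against non-cystic regions differed by 0.91 ± 1.06 (adjusted p = 0.532), and the SE was as large in the other comparisons (1.04 and 1.11). Krt80 had 2.07 to 5.48 CPM in F4/80-high, 0.447 to 3.46 CPM in F4/80-low and 1.67 to 3.95 CPM in non-cystic libraries, with medians of 2.30, 2.63 and 2.50. Against non-cystic regions its log2 fold change was 0.19 ± 0.57 in F4/80-high regions (adjusted p = 0.823) and -0.24 ± 0.58 in F4/80-low ones (adjusted p = 0.941), and it was 0.43 ± 0.59 for F4/80-high over F4/80-low (adjusted p = 0.634). Neither gene was called in any comparison, and their kidneys differed in sign.

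Levels between genes can be set side by side only per length. On a scale of CPM per kilobase of merged exons, Krt18 and Krt8 were the most abundant members in F4/80-high regions, at 144.1 ± 47.4 and 129.7 ± 31.1 (SD, n = 3 kidneys), and did not differ beyond their spread. They were followed by Krt20 at 32.4 ± 13.0, Krt19 at 21.9 ± 20.5 and Krt7 at 16.3 ± 7.00, whose spreads overlap, and Krt23 and Krt80 were lowest at 1.58 and 0.465. In F4/80-low regions Krt8 led at 77.1 ± 2.33, above Krt18 at 43.4 ± 18.2. Krt20 at 16.3 ± 8.30 and Krt7 at 9.63 ± 3.77 overlapped. Krt19 at 1.64 ± 2.12 and Krt23 at 1.34 ± 1.24 also overlapped, and Krt80 was at 0.346 ± 0.204. Non-cystic regions had Krt8 at 46.7 ± 11.0 and Krt18 at 33.6 ± 19.7, which overlap within their spread, then Krt7 at 11.4 ± 3.46. Krt19 at 0.697 ± 1.17, Krt23 at 0.568 ± 0.296 and Krt80 at 0.411 ± 0.0989 overlapped, and Krt20 was at 0.0574 ± 0.0501. Krt8 and Krt18 together made up 79.0% of the summed per-length level of the members in F4/80-high, 80.5% in F4/80-low and 86.0% in non-cystic regions. Krt20 took 9.35%, 10.9% and 0.0615% in the same order, and Krt7 4.70%, 6.43% and 12.2%. With the length of the principal transcript, Krt20 took 8.93%, 10.4% and 0.0562%, and Krt7 7.74%, 10.5% and 19.2%.

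Because filaments need equal parts of both types, the type I and type II sums of the members were also compared. Keratins outside the members are missing from these sums, among them Krt10, a tested gene of the type I cluster on chromosome 11. Krt10 averaged 19.1 CPM over the non-cystic areas, 16.4 around F4/80-low cysts and 14.7 around F4/80-high ones. The ratios therefore describe the members and not all keratins, and how far Krt10 would move them was not tested. In F4/80-high regions the type II sum was 146.4 and the type I sum 200.0 CPM per kilobase, a ratio of 0.732. The ratio was 1.39 in F4/80-low regions, from 87.1 and 62.7, and 1.68 in non-cystic regions, from 58.5 and 34.9. Kidney by kidney it was 0.685, 0.960 and 0.642 in F4/80-high regions, 1.30, 1.14 and 1.99 in F4/80-low and 3.28, 1.28 and 1.57 in non-cystic regions, so the F4/80-high values lay below all others in these 3 kidneys. With the length of the principal transcript in place of merged exons, a choice added after the data were seen that shortens Krt7, Krt80 and Krt19, the ratios were 0.778, 1.50 and 1.92. The stacked plot of levels per length shows the shift in make-up. A ratio of transcripts is not a ratio of proteins, and no test was made of it.

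**Figure D3:**
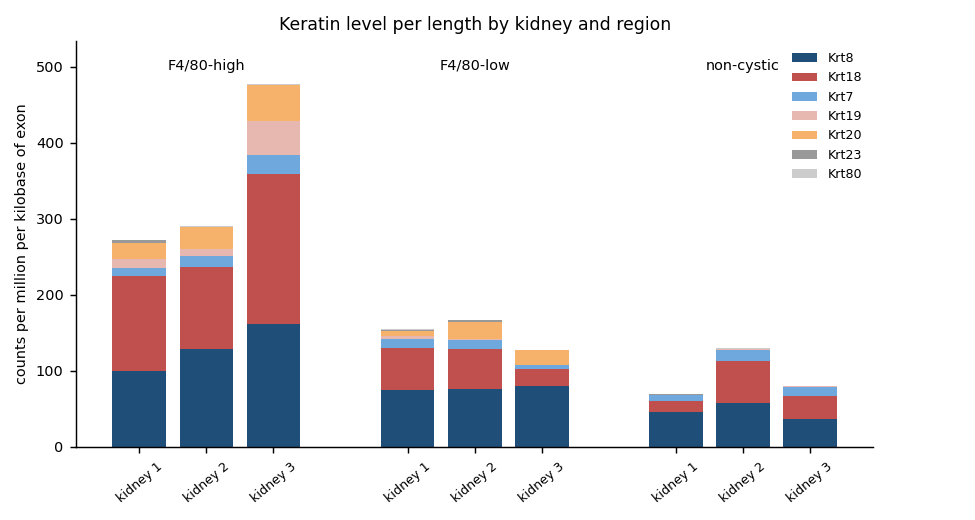
Stacked level of the 7 keratins (y axis, CPM per kilobase of merged exons) in each kidney, for F4/80-high, F4/80-low and non-cystic regions; each colour is a gene. Krt8 and Krt18 fill most of every bar, and the Krt20 band is visible in the cystic regions and absent from view in the non-cystic ones.

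A single library carried the highest level of 5 of the 7 members: F4/80-high kidney 3 replicate 2, with 485.6 CPM of Krt8, 507.0 of Krt18, 268.3 of Krt7, 138.5 of Krt19 and 122.2 of Krt20. It also held the 3 Krt5 counts and 90 of the 130 counts of Krt17, a type I keratin of stressed skin that was named here after its values were seen, as was Msln. Msln, the mesothelium marker mesothelin, had 451 of its 550 counts in the same library, 73 in F4/80-high kidney 1 replicate 2, 22 in F4/80-high kidney 3 replicate 1, 4 in non-cystic kidney 3 replicate 1 and 0 in all other libraries. The mesothelium and capsule list as a whole, without Krt19, summed to 27.1 to 85.4 CPM in F4/80-high, 31.0 to 84.5 CPM in F4/80-low and 31.3 to 52.5 CPM in non-cystic libraries. Gpm6a, a membrane glycoprotein on that list, made up 17.7% to 91.5% of the sum in F4/80-high, 67.5% to 99.3% in F4/80-low and 79.0% to 99.1% in non-cystic libraries. The list without Gpm6a summed to 2.30 to 70.3, 0.596 to 14.8 and 0.344 to 10.6 CPM in the same order. In F4/80-high kidney 3 replicate 2 Msln held 57.4 of the 85.4 CPM. The list's 3 tested genes, Gpm6a, Wt1 and Krt19 itself, were not called in any comparison.

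In the 3 F4/80-high libraries without an Msln count, Krt18 was at 132.2 to 172.1 CPM, above every F4/80-low and non-cystic library. Krt8 was at 159.9 to 257.0, Krt19 at 11.2 to 20.5 and Krt20 at 50.1 to 66.0 CPM there, all above every non-cystic library. Msln is a single gene of its list, and a count of 0 does not show that a library held no mesothelium. Among F4/80-high libraries, Muc16 (6 counts, kidney 1 replicate 1) and Lrrn4 (15, kidney 2 replicate 2) of that list were highest where Msln had no count. Upk3b (22, kidney 1 replicate 2) and Rspo1 (7, kidney 3 replicate 2) were highest where Msln had counts. Fitted without the 3 Msln-holding F4/80-high libraries, a choice made after the data were seen that leaves kidney 3 with no F4/80-high library, 2 members were called against non-cystic regions, Krt8 at 1.08 (adjusted p = 0.00659) and Krt20 at 9.21 (adjusted p = 4.12e-05). Krt18 was at 1.42 (adjusted p = 0.0831) and Krt19 at 2.98 (adjusted p = 0.233). Against F4/80-low regions none was then called, with Krt8 at 0.32 (adjusted p = 0.400), Krt20 at 1.17 (adjusted p = 0.1103) and Krt18 at 1.04 (adjusted p = 0.197). Calls over all genes against F4/80-low regions also fell in this fit, to 2002 from 3895 with all libraries. The lost keratin calls therefore cannot be told apart from a loss of calls in general. F4/80-high kidney 3 replicate 2 and non-cystic kidney 2 replicate 2 were also left out together. They were picked for standing apart in Krt19, after the data were seen. In that fit 4 members were called in F4/80-high against non-cystic regions, with Krt19 at 8.17 (adjusted p = 0.00941). This Krt19 call is no independent support, since the non-cystic library left out held 50 of the 53 non-cystic Krt19 counts. Against F4/80-low regions 2 were called then, Krt18 at 1.31 (adjusted p = 0.0411) and Krt20 at 0.92 (adjusted p = 0.0417).

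Within a region type the members did not all vary together. After the mean of each region type was taken off the log2 CPM, Krt18 and Krt7 followed each other closely over the 18 libraries (Pearson's r = 0.93, Spearman's rho 0.93, and r = 0.83 without the 2 libraries farthest out). Krt18 and Krt19 had r = 0.69, Krt7 and Krt80 0.68, and the filament partners Krt8 and Krt18 0.51, or 0.37 without the 2 farthest libraries. Krt20 had r = 0.30 with Krt8, or 0.16 without the 2 farthest libraries, 0.05 with Krt7, -0.03 with Krt23, -0.04 with Krt18, -0.08 with Krt80 and -0.22 with Krt19. Only 2 of the 6 non-cystic libraries held Krt20 counts, 4 in all. The rest share a floor value there and carry nothing on how Krt20 varies. These correlations are descriptions over libraries that share kidneys and scaling. The plot of deviations from region means shows Krt7 and Krt20 against Krt18.

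**Figure D4:**
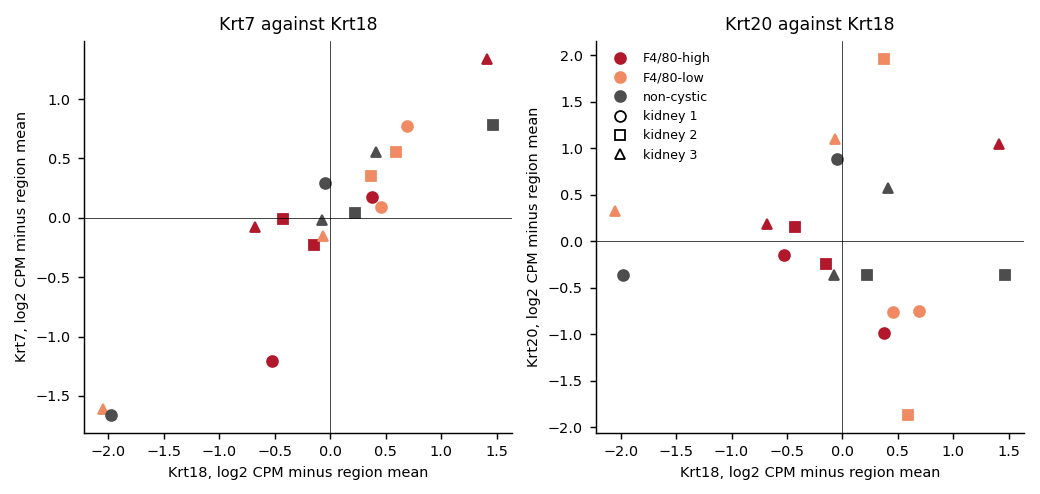
Deviation of Krt7 (left) and Krt20 (right) from the mean of its region type (y axis, log2 CPM) against that of Krt18 (x axis, log2 CPM), each point 1 of 18 libraries. Krt7 follows Krt18 along a line (r = 0.93) and Krt20 does not (r = -0.04). Only 2 of the 6 non-cystic libraries held Krt20 counts, and the rest share a floor value.

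Summed levels of marker lists were set beside these deviations, without the members in them. The summed level of 9 intercalated cell genes, which mark acid- and base-secreting cells of the collecting duct, had r = 0.76 with Krt18 and 0.62 with Krt7 after region means were removed, and 0.17 with Krt8. The F4/80-low library with the lowest Krt18, kidney 3 replicate 2 at 12.5 CPM, also had the lowest summed intercalated cell level of its group, 30.1 CPM in a range up to 387.4. The non-cystic library lowest in Krt18 and Krt7, kidney 1 replicate 2 at 9.03 and 21.2 CPM, had the lowest of its group, 176.0 CPM in a range up to 1128. The AP-1 and immediate early genes had r = 0.73 with Krt8, 0.56 with Krt7 and 0.50 with Krt18, and the macrophage genes 0.52, 0.53 and 0.47 with the same members and 0.63 with Krt20. The parietal epithelium genes had 0.61 with Krt18 and 0.65 with Krt80, and the urothelium genes -0.64 with Krt8. The urothelium sum was small, at 4.83 to 25.4 CPM in F4/80-high libraries, and only 3 of the list's 12 genes were tested. In F4/80-high kidney 3 replicate 1, for example, Snx31 had 110 counts and Psca 119, against 6 for Upk1a and 6 for Upk3b. Only some of the correlations of 18 lists with 7 members are given here. Krt20 had r = 0.70 with the summed level of 18 tubular injury genes, of which Spp1, the secreted protein osteopontin, made up 92.3% to 96.3% in F4/80-high, 73.0% to 96.0% in F4/80-low and 65.7% to 79.4% in non-cystic libraries. Without Spp1 the other 17 genes had 0.47 with Krt20, 0.64 with Krt7 and 0.59 with Krt18. F4/80-low kidney 2 replicate 2, with the most Krt20 of its group at 87.0 CPM, had 99271 CPM of Spp1 and 4110 of the other injury genes, and kidney 2 replicate 1, with the least Krt20 at 5.88 CPM, had 2599 and 961.7. Their part in the results was not tested.

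The genes whose log2 CPM was most like that of each member over the 18 libraries, among 8577 candidates, differed between members. For Krt20 they were Serpina10, a plasma protease inhibitor (r = 0.96), Havcr1, the kidney injury molecule 1 shed by damaged proximal tubules (0.96), and Dpysl3 (0.96), with 0.62, 0.68 and 0.55 once region means were removed. For Krt18 they were Thbs1, the matrix protein thrombospondin 1 (0.96, and 0.93 with region means removed), Sfxn3 (0.93 and 0.89) and Cpne8 (0.92 and 0.82). For Krt8 they were Fxyd5 (0.94 and 0.68) and the complement genes C1qa (0.93 and 0.69) and C1qb (0.93 and 0.68), which macrophages make. Krt19 was most like Spon1 (0.94 and 0.79), Trf, the iron carrier transferrin (0.94 and 0.80), and Swap70 (0.94 and 0.80), and Krt7 like Sfxn3 (0.87 and 0.88), Hs1bp3 (0.86 and 0.84) and Ptpn18 (0.85 and 0.84). The scarce Krt23 and Krt80 reached 0.78 with Rnf121 and 0.80 with Dop1b. Picked as the nearest of so many genes, these values are high by selection.

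Havcr1 had 243.0 to 529.8 CPM with a median of 312.9 in F4/80-high, 8.82 to 737.3 CPM with a median of 70.0 in F4/80-low and 0.167 to 3.53 CPM with a median of 0.472 in non-cystic libraries. Havcr1 was picked for its likeness to Krt20, so its levels are a description and carry no test. Among F4/80-high libraries Krt20 was lowest, at 29.8 CPM, where Havcr1 was highest (kidney 1 replicate 2, 529.8 CPM). Krt20 was highest there, at 122.2 CPM, where Havcr1 was lowest (kidney 3 replicate 2, 243.0 CPM). Among F4/80-low libraries both were lowest in kidney 2 replicate 1, at 5.88 and 8.82 CPM. Both were highest in kidney 2 replicate 2, at 87.0 and 737.3 CPM. The scatter plots of Krt20 against Havcr1 and of Krt19 against Msln show every library.

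**Figure D5:**
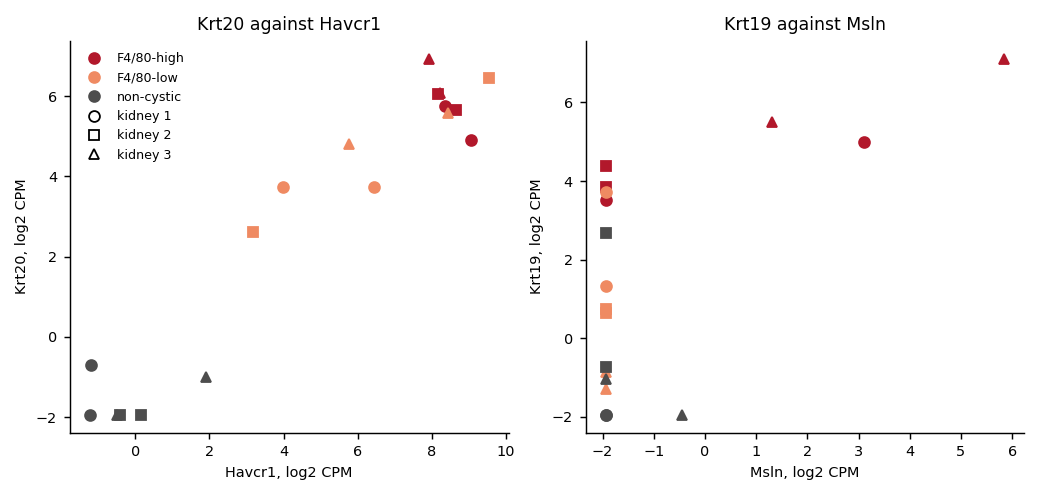
Krt20 against Havcr1 (left) and Krt19 against Msln (right), both axes in log2 CPM, each point 1 of 18 libraries coloured by region type. Krt20 and Havcr1 are both low in non-cystic and higher in cystic libraries (r = 0.96 over 18 libraries). Within the F4/80-high libraries Krt20 is lowest where Havcr1 is highest, and highest where Havcr1 is lowest. On the right, 3 F4/80-high libraries stand out in Msln.

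Genes of the proteins that hold keratin filaments in place were called in both directions. Of 19 desmosome and linker genes 15 were tested; 6 rose and 2 fell in F4/80-high against non-cystic regions, 2 rose and 3 fell against F4/80-low, and none was called in F4/80-low against non-cystic regions, with medians of 0.22, 0.00 and 0.22. Of all genes 19.7% were called higher and 19.5% lower in F4/80-high against non-cystic regions, and 10.3% and 14.0% against F4/80-low. Eppk1, epiplakin, which binds keratins, rose by 3.47 ± 0.64 (adjusted p = 0.00260) and Ppl, periplakin, by 2.88 ± 0.42 (adjusted p = 0.000844) in F4/80-high against non-cystic regions. Pkp4, plakophilin 4, fell by 1.33 ± 0.20 on the log2 scale (adjusted p = 0.000852) and Dst, dystonin, which anchors keratins at hemidesmosomes, by 0.90 ± 0.18 (adjusted p = 0.00343). Falls are relative to the other genes: scaling to total counts moves the median of all genes in this comparison to 0.65. Intermediate filament genes outside the keratin family, 10 tested of 15, rose for 7 in F4/80-high against non-cystic, 2 against F4/80-low and 1 in F4/80-low against non-cystic regions, with medians of 2.01, 0.68 and 1.02. Vim, vimentin of mesenchymal and injured tubular cells, rose by 3.05 ± 0.40 (adjusted p = 0.000861) in F4/80-high against non-cystic regions. Des, desmin of contractile cells, rose by 2.12 ± 0.25 there (adjusted p = 0.000308) and by 1.19 ± 0.25 in F4/80-low regions (adjusted p = 0.0491).

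Transcription factors known in epithelia, 14 tested of 19, rose for 6 and fell for 2 in F4/80-high against non-cystic regions (median 1.07), rose for 3 and fell for 1 against F4/80-low (0.79), and rose for 3 in F4/80-low against non-cystic regions (0.28). Sox9, active in regenerating tubules, rose by 5.18 ± 0.45 (adjusted p = 0.000102), Sox4 by 2.92 ± 0.27 (adjusted p = 9.69e-05), Klf6 by 2.49 ± 0.29 (adjusted p = 0.000264) and Elf3 by 2.29 ± 0.20 (adjusted p = 5.90e-05) in F4/80-high against non-cystic regions. AP-1 and immediate early genes, 8 tested of 10, rose for 6, 2 and 3 in F4/80-high against non-cystic, F4/80-high against F4/80-low and F4/80-low against non-cystic regions, with medians of 2.13, 0.94 and 1.23. These counts stand beside 19.7% of all genes called higher and 19.5% lower in F4/80-high against non-cystic regions. The shares were 10.3% and 14.0% against F4/80-low, and 1.51% and 0.0249% in F4/80-low against non-cystic regions. Genes of epithelia in general, 13 tested, rose for 3 and fell for 4 in F4/80-high against non-cystic regions (median 0.30), rose for 2 and fell for 2 against F4/80-low (0.19), and none was called in F4/80-low against non-cystic regions (0.04). Their summed level was 556.7 to 913.6 CPM in F4/80-high, 880.8 to 1090 CPM in F4/80-low and 904.0 to 1062 CPM in non-cystic libraries. Epcam, the adhesion protein of distal and ductal epithelium, rose by 1.43 ± 0.27 (adjusted p = 0.00279) and Prss8, the protease prostasin, fell by 1.69 ± 0.34 (adjusted p = 0.00430) in F4/80-high against non-cystic regions. Dst, Des, Elf3, Sox4 and Prss8 overlap a gene on the other strand and Eppk1 a gene on its own, so their counts are uncertain.

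The region types also differed in their cell markers. Of 14 macrophage genes 14 rose in F4/80-high against both other region types, and 8 in F4/80-low against non-cystic regions, with medians of 4.41, 2.52 and 2.01 in F4/80-high against non-cystic, F4/80-high against F4/80-low and F4/80-low against non-cystic regions. Their summed levels were 2434 to 6846, 239.9 to 879.9 and 92.8 to 176.0 CPM in F4/80-high, F4/80-low and non-cystic libraries. The regions had been chosen by F4/80 and this list holds Adgre1, so the macrophage values are a check and not a result. Tubular injury genes rose for 17 of 18 in F4/80-high against non-cystic, 11 against F4/80-low and 6 in F4/80-low against non-cystic regions (medians 3.18, 1.50 and 1.75). Fibroblast and matrix genes rose for 9, 8 and 5 of 9 tested in the same order (medians 4.43, 1.71 and 2.36). Proximal tubule genes, 16 tested, fell for 15 in F4/80-high against non-cystic and 14 against F4/80-low regions (medians -3.34 and -3.06), with summed levels of 182.1 to 3029 CPM in F4/80-high, 6127 to 13724 CPM in F4/80-low and 11681 to 20528 CPM in non-cystic libraries. The shares over all genes were 19.7% higher and 19.5% lower against non-cystic, and 10.3% and 14.0% against F4/80-low regions. In F4/80-low against non-cystic regions 1.51% of all genes were called higher.

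Marker genes of other kidney segments were also counted. Principal cell and collecting duct genes, 11 tested, fell for 3 in F4/80-high against non-cystic regions and 2 against F4/80-low (medians -1.42 and -0.67), and intercalated cell genes fell for 4 of 9 in F4/80-high against non-cystic regions (-1.75). Thick ascending limb genes fell for 4 of 8 in F4/80-high against each of the other region types (-1.42 against non-cystic and -1.35 against F4/80-low), where 19.5% and 14.0% of all genes were called lower. Parietal epithelium genes, which line the glomerular capsule, rose for 5 of 8 in F4/80-high against non-cystic and 4 against F4/80-low regions (2.15 and 1.22), and thin limb and papilla genes for 4 and 3 of 7 and for 1 in F4/80-low against non-cystic regions (2.52, 1.28 and 1.13). Of all genes 19.7% and 10.3% were called higher in F4/80-high against non-cystic and F4/80-low regions. The share was 1.51% in F4/80-low against non-cystic regions. The parietal list holds Krt8 and Krt18, which are both among its calls against non-cystic regions. Krt8 is also among its calls against F4/80-low regions. The thin limb list holds Krt7 and Krt19, which were not called. These members also enter the medians of the lists. Without members, the parietal genes summed to 114.9 to 245.2 CPM in F4/80-high, 62.6 to 123.9 CPM in F4/80-low and 49.8 to 100.4 CPM in non-cystic libraries. The thin limb genes without members summed to 485.6 to 709.4, 174.7 to 640.1 and 109.4 to 167.2 CPM in the same order. Of 12 urothelium genes 3 were tested, and Psca rose in F4/80-high against non-cystic regions by 4.11 ± 0.85 (adjusted p = 0.00463) and was called higher against F4/80-low. Their summed level, without Krt5, was 4.83 to 25.4, 6.26 to 16.7 and 7.22 to 11.1 CPM. Endothelial genes had 1 call each way of 9 in F4/80-high against non-cystic regions and 1 lower against F4/80-low, and no podocyte gene of 7 was called. In the lists of this and the preceding paragraph no other gene was called. The part of these markers in the keratin results was not tested.

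Outside the 8 members, 45 further keratin genes were in the table: 9 had no count, 32 had counts but did not pass the filter, and 4 were tested. Krt12, a type I keratin known from the cornea, was called higher in F4/80-high regions, by 5.57 ± 1.18 against non-cystic (adjusted p = 0.00504) and by 2.75 ± 0.87 against F4/80-low regions (adjusted p = 0.0453). It rested on 84 counts in F4/80-high, 10 in F4/80-low and 1 in non-cystic libraries, a ratio per total counts of 83.8 to non-cystic regions with an exact 95% interval of 14.6 to 3349. Krt12 overlaps A830036E02Rik and Krt10 overlaps Gm11940 on the other strand, so their counts are uncertain. Krt10, Krt222 and Krt84 were not called, with -0.39 ± 0.21 (adjusted p = 0.178), 1.42 ± 0.59 (adjusted p = 0.0838) and 1.91 ± 1.14 (adjusted p = 0.216) in F4/80-high against non-cystic regions.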

How the data were processed

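The authors deposited 1 table of raw counts of genes by libraries, not normalized. Per the submitters' processing notes the genome is mm10 (GRCm38) and FastQC 0.11.9, fastp 0.20.1 and HTSeq 0.11.0 were used, with roles not stated; aligner, annotation release and strand setting: not given in the sources used here. Since libraries of the same kidney are not independent, both libraries of each kidney and region were added up, giving 9 sums. The model used edgeR 4.0.16 in R 4.3.3 (TMM scaling, filterByExpr by region type, robust quasi-likelihood test), all 3 region types in 1 model with the kidney as block leaving 4 residual degrees of freedom. After the filter 16034 genes remained, with 99.8% of the counts, and Benjamini-Hochberg adjustment ran over all of them, with calls below 0.05. SEs were worked back from the F statistic, as the size of the log2 fold change divided by the root of F. CPM use the same scaling. It leaves the median of all genes at 0.04, 0.04 and 0.00 on the log2 scale in F4/80-high against non-cystic, F4/80-high against F4/80-low and F4/80-low against non-cystic regions. In the same order 50.2%, 42.3% and 98.4% of all calls were higher. The share was 81.9%, 79.0% and 99.5% with total counts, 74.0%, 70.4% and 98.5% when scaled to the pan-epithelial genes, and 57.4%, 53.1% and 98.2% with upper quartile factors.

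The pairing comes from the kidney number in the labels: deviations from region means of the same kidney correlated at -0.154 to 0.275, and those of the same replicate number within a kidney at -0.105 to 0.132. Libraries totalled 5366651 to 9188813 counts, and intervals cover counting error only, as there are no molecular identifiers. The 18 lists hold 203 genes. The members, the lists, the motifs and the tests were chosen with earlier results of these data known. Named besides the members were other keratins that were called, the genes of lowest p in each list (at most 4) in F4/80-high against non-cystic regions, the 3 genes most correlated with each tested member (mean log2 CPM of at least 3), and Adgre1, Cdh16 and Pkd1. Alternatives were 4 other scalings, 2 other filters (none, or 50 counts in 3 sums), the Wald test of DESeq2 1.42.0, voom of limma 3.58.1, fits of 18 libraries, other blocks, subsets, and leaving out kidneys or libraries.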

Additional observations from a re-analysis of the deposited data

Results flagged for a closer look

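Gaps between libraries of a group were compared with Dixon's 95% limit for 6 values, on the log2 scale, for 21 groups of a gene and region type. Chance flags about 1 in 20 such groups. Krt18 in F4/80-low kidney 3 replicate 2 stood apart as the lowest of its group at 12.5 CPM, with a gap of 0.724 of the range. Krt7 in non-cystic kidney 1 replicate 2 was the lowest of its group at 21.2 CPM (gap 0.674). Krt19 in non-cystic kidney 2 replicate 2 was the highest of its group at 6.12 CPM (gap 0.737).

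Some kidneys differed in direction with both libraries of a region type on one side of both libraries of the other. These differences were not tested. Krt80 differed in F4/80-high against non-cystic regions by 0.82 in kidney 3 and -0.57 in kidney 2 on the log2 scale. In F4/80-high against F4/80-low regions it differed by 2.43 in kidney 3 and by -0.60 and -0.26 in kidneys 1 and 2. In F4/80-low against non-cystic regions it differed by -1.61 in kidney 3 and 0.65 in kidney 1. Krt23 differed in F4/80-high against F4/80-low regions by 1.74 in kidney 1 and -2.31 in kidney 2. Both genes had few counts.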

How the results depend on the processing

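The number of members called in F4/80-high against non-cystic regions, 3, was 2 to 4 under 37 alternatives. In F4/80-low against non-cystic regions it was 1, and 2 with 18 libraries and the kidney as block or in voom, 0 with libraries numbered 2 only (Krt20 11.26, adjusted p = 0.116, edgeR), and 1 to 1 over omissions of a kidney or library. In F4/80-high against F4/80-low regions it was 2, and 4 with the replicate number as a further replicate block or in voom, 1 with only those region types fitted or with libraries numbered 2 only, 0 without the 3 Msln-holding libraries, and 0 to 3 over omissions. Replicate numbers do not pair the libraries, so the replicate block is given here only, with Krt19 in F4/80-high against F4/80-low regions at 3.88 (adjusted p = 0.0180); the fit with no kidney term called 4 in F4/80-high against non-cystic regions. Krt8 and Krt20 were called in F4/80-high against non-cystic regions in all 37 alternatives, and Krt18 in 32, lost also with no filter (adjusted p = 0.0971) and libraries numbered 2 only (adjusted p = 0.0846). Against F4/80-low the call of Krt8 was lost in 16 and of Krt20 in 8 of 37, while Krt18 was called in 15. The DESeq2 Wald test also called Krt19 in F4/80-high against non-cystic regions (6.65, adjusted p = 0.00394) and Krt18 against F4/80-low (1.80, adjusted p = 0.000266), and no member as lower.

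Of the log2 fold changes 28 changed sign, none of them called. For Krt23 in F4/80-high against F4/80-low regions the value was 0.34 with total counts, 0.21 scaled to pan-epithelial genes, 0.23 with no replicate block, 0.12 with the replicate block, 0.89 in voom, 0.069 with those region types alone, 0.48 with libraries numbered 2 only, 0.30 without the Msln-holding libraries, and -1.49 to 1.45 over omissions. Omissions gave Krt23 -0.33 to 2.06 in F4/80-high and -0.66 to 2.39 in F4/80-low against non-cystic regions, where libraries numbered 2 only gave -0.079. Without the Msln-holding libraries Krt7 was -0.39 and Krt80 -0.64 against non-cystic, and -0.13 and -0.23 against F4/80-low regions; libraries numbered 1 only gave Krt7 -0.037 in F4/80-high against non-cystic regions. Over omissions Krt80 was -0.31 to 0.55 and -0.47 to 1.09 in F4/80-high against non-cystic and F4/80-low regions. In F4/80-low against non-cystic regions omissions gave -0.83 to 0.16 for Krt80, -0.68 to 0.19 for Krt7, -0.22 to 0.81 for Krt18 and -1.20 to 6.21 for Krt19. The causes were not tested.

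Krt8 levels with total counts were 332.7 CPM in F4/80-high and 138.7 CPM in F4/80-low regions, and the other 19 levels moved by less than 1 SD. Over all genes 6289 were called in F4/80-high against non-cystic regions (3359 to 8071 over alternatives), 3895 in F4/80-high against F4/80-low (988 to 5959) and 246 in F4/80-low against non-cystic regions (23 to 675). Total counts moved the median of all genes to 0.65, 0.52 and 0.13 in that order, and pan-epithelial scaling to 0.46, 0.38 and 0.07. Krt23, Krt80, Krt5 and Krt12 are limited by their few counts, and 3 kidneys limit every test.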
